A study of Mus musculus with 12 samples.

Results

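The hippocampus of BK KO mice was compared with that of wild-type (WT) mice by RNA sequencing, with 3 libraries for each genotype. BK KO mice (kcnma1-/-) carry a small frameshift deletion in the gene of the BK channel in every cell from conception, so direct effects of the missing channel and adaptations over life cannot be told apart. The WT mice were wild type for kcnma1, both groups were C57BL/6 adults, and the breeding scheme of the study gave littermates of both genotypes. Each library came from the hippocampus of 1 mouse, a tissue that mixes neurons, glia and vessel cells. The genes described are the 652 rows of the hippocampus table, of 1017 genes listed in the hippocampus and cortex tables of the series together. Of these, 456 were absent from the cortex table and 196 were also in it. The hippocampus table holds only genes that the authors had called different between the genotypes on these same libraries, so a count below describes the listed genes and is not a test of a gene set. The cortex values of the 456 genes were not analysed here, and whether the genotype acted differently in the cortex on them was not tested.

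The BK channel is a potassium channel with a large conductance that opens when the membrane depolarizes and cytosolic calcium rises together. Neurons use it to repolarize action potentials, to shape the afterhyperpolarization and to limit transmitter release at nerve terminals. It is also known in smooth muscle of vessels, where it opposes constriction. The hippocampus is built from pyramidal neurons of the CA fields, granule neurons of the dentate gyrus and a smaller population of inhibitory interneurons.

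Levels are given as FPKM, which divides the fragments of a gene by transcript length and by the total of the library, so that levels of different genes can be set side by side. The depth of the libraries is unknown, because the tables hold no read counts per library and only part of the genes. Fold changes are differences of log2(FPKM + 1) between BK KO and WT with their standard error (SE), which understates the change of genes with low FPKM. A gene was past the threshold when its limma p-value was under 0.05 before adjustment and the log2 fold change exceeded 0.58 upwards or downwards. Adjusted p-values are those of limma after Benjamini-Hochberg adjustment over the 652 listed genes. Where the BK KO and WT values did not overlap, the two-sided exact permutation p-value of that gene was 0.1, the smallest that 3 against 3 libraries allow.

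Kcnma1, the gene of the pore-forming BK subunit, had levels of 11.3, 10.6 and 9.67 FPKM in WT against 2.54, 2.82 and 2.81 FPKM in BK KO. All BK KO values were far below all WT values, which matches the labels of the 6 libraries. The log2 fold change was -1.63 (SE 0.10, adjusted p = 0.000844, limma), a level 3.87 times lower. The deletion removes few bases of the transcript, so this is a difference in the amount of mRNA and does not measure the protein.

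Among 652 listed genes, 278 were past the threshold, which is 42.6% of those tested. Of these, 135 genes (20.7%) were higher and 143 genes (21.9%) were lower in BK KO hippocampus. The groups did not overlap in 521 genes (79.9%). The genes absent from the cortex table were divided almost evenly, with 223 higher and 233 lower in BK KO, and 106 of the former and 89 of the latter were past the threshold. The genes listed in both tables were mostly lower, with 50 higher and 146 lower, of which 29 and 54 were past the threshold. The share past the threshold was 42.8% in the former group and 42.3% in the latter, close to that of the whole list. The median log2 fold change was -0.10 for the genes absent from the cortex table, -0.42 for the genes in both tables and -0.27 for all listed genes. The sum of FPKM over the listed genes was between 5170 and 5696 in the 6 libraries. Among the 379 genes lower in BK KO, WT library 2 was the lowest WT library in 168 and BK KO library 2 the lowest BK KO library in 185.

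**Figure D1:**
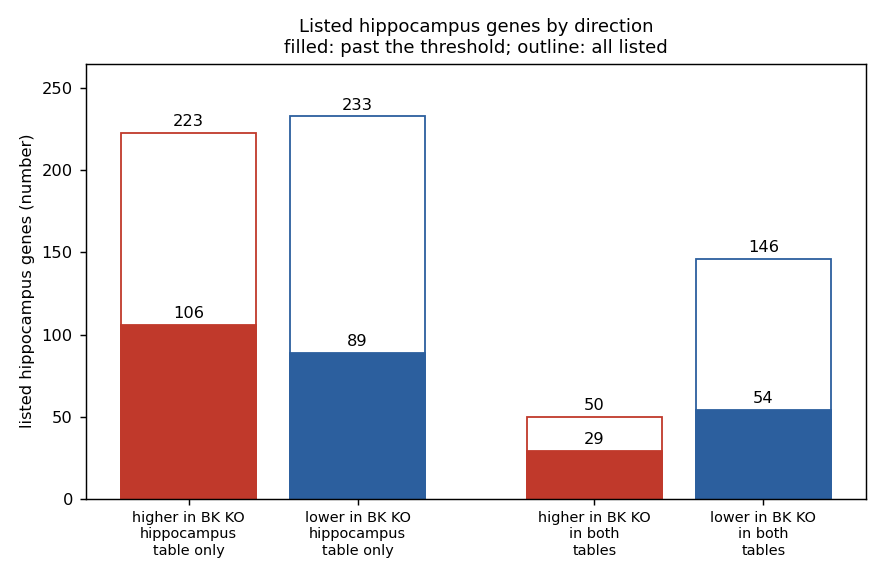
Number of listed hippocampus genes (y axis) that were higher or lower in BK KO than in WT, for genes in the hippocampus table only and for genes in both tables. Outlines show all listed genes and filled bars those past the threshold. Higher and lower genes were 223 and 233 in the hippocampus table only, against 50 and 146 in both tables.

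The genes were grouped into lists of cell type markers and gene families, in 5 classes of neuronal identity, synapse, signalling, vessels and glia. The classes hold 180 of the listed genes, 125 of them absent from the cortex table. Of the 180 genes, 49 rose and 50 fell past the threshold, and their median log2 fold change was -0.13. This is 55.0% past the threshold against 42.6% of all listed genes. The lists were chosen with earlier results of these data known, so the shares of classes and lists may reflect that choice. The other listed genes include 469 that no list holds, of which 85 rose and 93 fell (38.0% past the threshold).

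**Figure D2:**
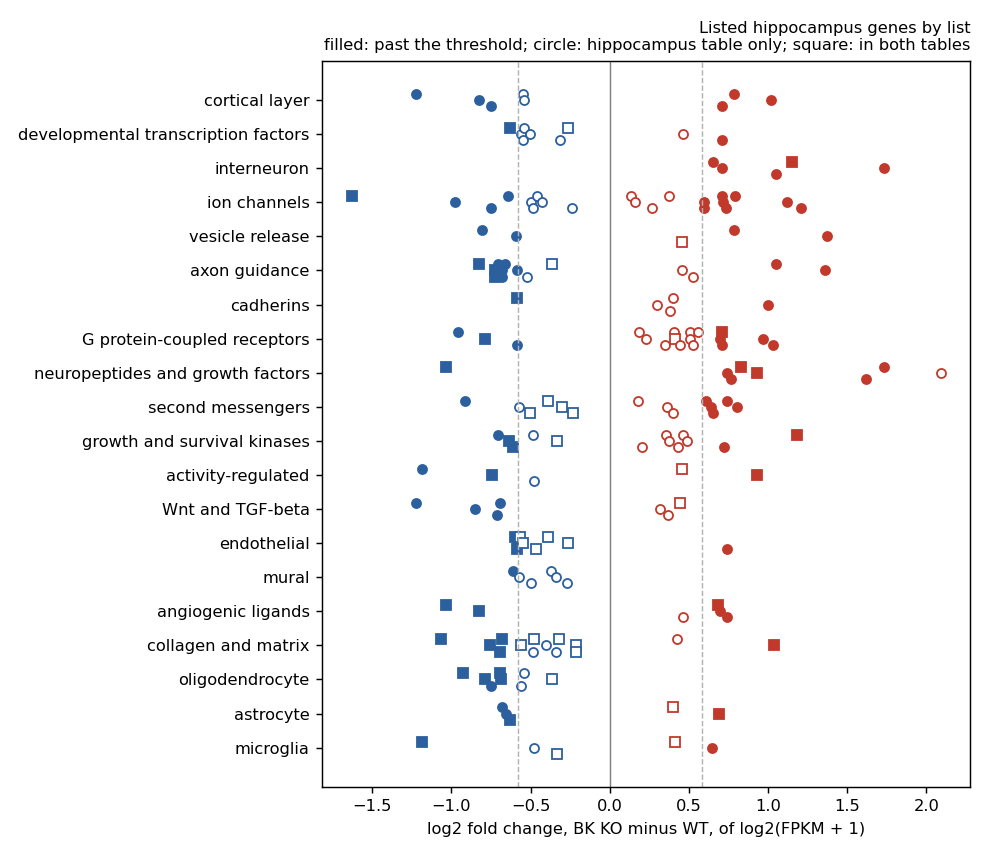
Log2 fold change of log2(FPKM + 1), BK KO minus WT (x axis), for each listed gene of the lists with at least 5 listed genes (y axis). Filled points were past the threshold, circles are genes in the hippocampus table only, squares are genes in both tables, and dashed lines mark 0.58 in either direction. All 5 genes of the interneuron list lie to the right of 0, and all 6 of the mural list and all 8 of the oligodendrocyte list lie to the left.

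Genes that mark types of neurons moved in both directions. Of 24 listed genes of neuronal identity, 10 rose, 5 fell and 9 did not pass the threshold. This is 62.5% past the threshold against 42.6% of all listed genes, and the median log2 fold change was 0.10 against -0.27. Of these genes, 19 were absent from the cortex table. In whole tissue, fewer cells of a type and less RNA per cell cannot be told apart, and this holds for each cell type marker below. The lists of hippocampal field markers are mostly not among the listed genes, with 2 of 7 markers of CA1, 1 of 13 markers of CA2 and CA3 and 1 of 13 markers of the dentate gyrus listed, so the tissue label could not be checked with them.

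All 5 listed genes of the inhibitory interneuron list, which holds 30 markers, were higher in BK KO and past the threshold. This is 100% against 42.6% of all listed genes, in a list chosen with earlier results of these data known. Lamp5, which some interneurons also express, was placed among the projection neuron markers and fell, as given below. Gad2, an enzyme that makes GABA, was at 12.8, 14.7 and 16.4 FPKM in WT against 34.1, 37.5 and 29.8 FPKM in BK KO. Of the 5 genes of the interneuron list, it is the only one that the cortex table also lists. The Gad2 groups lay far apart and the log2 fold change was 1.15 (SE 0.14, adjusted p = 0.012, limma). Reln, the secreted glycoprotein reelin of Cajal-Retzius cells and some interneurons, was at 5.81, 4.64 and 5.02 FPKM in WT, whereas BK KO libraries held 12.9, 13.6 and 9.14 FPKM. It rose in every comparison of a BK KO with a WT library, with a log2 fold change of 1.05 (SE 0.17). Nos1, the neuronal nitric oxide synthase, rose by 0.65 (SE 0.20) on the log2 scale, from a mean of 5.23 ± 1.13 to 8.81 ± 1.90 FPKM (SD, n = 3). The groups did not overlap for these 3 genes.

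The remaining pair of interneuron markers depended on single libraries. Tac1, the precursor of the peptide substance P, was at 3.97, 3.29 and 26.6 FPKM in WT versus 36.4, 18.9 and 28.2 FPKM in BK KO. WT library 3 lay inside the BK KO range, and the log2 fold change of 1.73 (SE 0.69) had an adjusted p of 0.0542 by limma. Nr2f2, a nuclear receptor of interneurons from the caudal ganglionic eminence, was at 2.17, 2.09 and 1.97 FPKM in WT against 2.1, 4.89 and 5.97 FPKM in BK KO. BK KO library 1 lay among the WT values, and with a log2 fold change of 0.71 (SE 0.29) the adjusted p was 0.0556 by limma. The summed FPKM of the 5 interneuron markers ran from 30.6 to 54.0 in WT and from 81.8 to 92.5 in BK KO. Since the genes were listed for differing between the genotypes in these same libraries, this sum is not separate evidence. The same holds for the sums of other lists below.

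Markers of pyramidal neurons also moved in both directions. Of 2 listed CA1 markers, 1 rose and 1 fell past the threshold. The CA1 marker that fell was absent from the cortex table and had a log2 fold change of -0.79. Wfs1, an endoplasmic reticulum protein enriched in CA1, was at 52.6, 33.9 and 29.8 FPKM in WT, whereas BK KO libraries held 75.9, 124 and 80.1 FPKM, and the cortex table lists it as well. The log2 fold change was 1.25 (SE 0.27) with groups that did not overlap. Necab2, a calcium-binding protein of CA2 and nearby neurons, rose from a mean of 10.2 ± 3.24 to 19.9 ± 3.60 FPKM (SD, n = 3) at a log2 fold change of 0.93 (SE 0.24).

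Of 8 listed markers of neocortical and subicular projection neurons, 3 rose and 3 fell, and all 8 were absent from the cortex table. In this list 75.0% were past the threshold, against 42.6% of all listed genes. Rspo1, a secreted enhancer of Wnt signalling, was at 11.1, 5.52 and 7.57 FPKM in WT versus 3.66, 3.16 and 1.73 FPKM in BK KO, with a log2 fold change of -1.23 (SE 0.28). Its BK KO values were all below its WT values. The neurexophilins, secreted ligands of alpha-neurexins, moved in opposite directions. Nxph4 rose from 3.92, 2.52 and 4.10 FPKM to 9.22, 10.8 and 5.07 FPKM (log2 fold change 1.02, SE 0.27), while Nxph3 fell from 11.8, 8.66 and 11.9 FPKM to 4.95, 6.42 and 6.61 FPKM (log2 fold change -0.75, SE 0.16). Both pairs of groups were separate. Lamp5 fell by 0.83 on the log2 scale and Nov rose by 0.79, each with groups that overlapped. Bcl11b, a transcription factor of deep-layer cortical neurons and of several hippocampal neurons, was at 4.37, 9.39 and 9.80 FPKM in WT against 15.3, 11 and 12.4 FPKM in BK KO. Its log2 fold change of 0.71 (SE 0.28) had an adjusted p of 0.0541 by limma, and without WT library 1 it was 0.38. Among 9 listed developmental transcription factors, Bcl11b rose, Etv4 fell (-0.63, SE 0.15) and 7 did not pass the threshold, so 22.2% were past it.

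Synapse and excitability genes moved in both directions. Of 53 listed genes, 17 rose and 17 fell, which is 64.2% past the threshold, against 42.6% of all listed genes. Of the 53 genes, 45 were absent from the cortex table, and 17 of these rose and 11 fell. The median log2 fold change of the class was 0.27. The count of 34 genes was 22 without BK KO library 2 and also 22 without WT library 1.

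Ion channels made up 21 of these genes, of which 20 were absent from the cortex table, Kcnma1 being the exception. Hcn4, a subunit of the hyperpolarization-activated cation channel, was at 0.621, 0.542 and 1.53 FPKM in WT, whereas BK KO libraries held 3.18, 3.76 and 2.94 FPKM. The groups were well apart at a level 3.67 times higher, and the log2 fold change was 1.21 (SE 0.20, adjusted p = 0.0142, limma). Besides Kcnma1, 12 genes of the potassium channel families (Kcn) were listed, 5 of which rose and 3 of which fell. That is 66.7% past the threshold, against 42.6% of all listed genes. The rising genes were mainly voltage-gated subunits. Kcna5 was at 1.1, 1.63 and 3.43 FPKM in WT versus 7.56, 3.54 and 5.41 FPKM in BK KO, with a log2 fold change of 1.12 (SE 0.33). WT library 3 came close to BK KO library 2 for this gene without overlapping. Kcna3 rose from 3.70 ± 1.57 to 6.81 ± 0.351 FPKM and Kcnd3, a subunit of A-type channels, from 7.26 ± 0.766 to 11.5 ± 1.02 FPKM (SD, n = 3). Kcns2, a modulatory subunit, rose by 0.60 (SE 0.14) and Kcne1l, an accessory subunit, by 0.73 (SE 0.22) on the log2 scale. With the libraries rescaled to the deposited base means, Kcnd3 and Kcns2 were at 0.57 on the log2 scale and no longer past the threshold.

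The potassium channel genes that fell belong to other families. Kcnk4, a two-pore-domain leak channel opened by stretch and lipids, was at 7.63, 4.29 and 5.57 FPKM in WT against 2.46, 2.49 and 2.24 FPKM in BK KO. It fell by 0.98 on the log2 scale (SE 0.18), to a level 2.43 times lower. Kcnj9, a G protein-gated inward rectifier subunit and the most abundant of these channels, was at 64.2, 38.0 and 57.3 FPKM in WT, whereas BK KO libraries held 35.6, 25.7 and 30.8 FPKM. WT library 2 came near BK KO library 1, and the log2 fold change was -0.75 (SE 0.22). Ano2, a calcium-activated chloride channel, rose by 0.72 (SE 0.22) on the log2 scale from levels under 1 FPKM in every WT library.

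**Figure D3:**
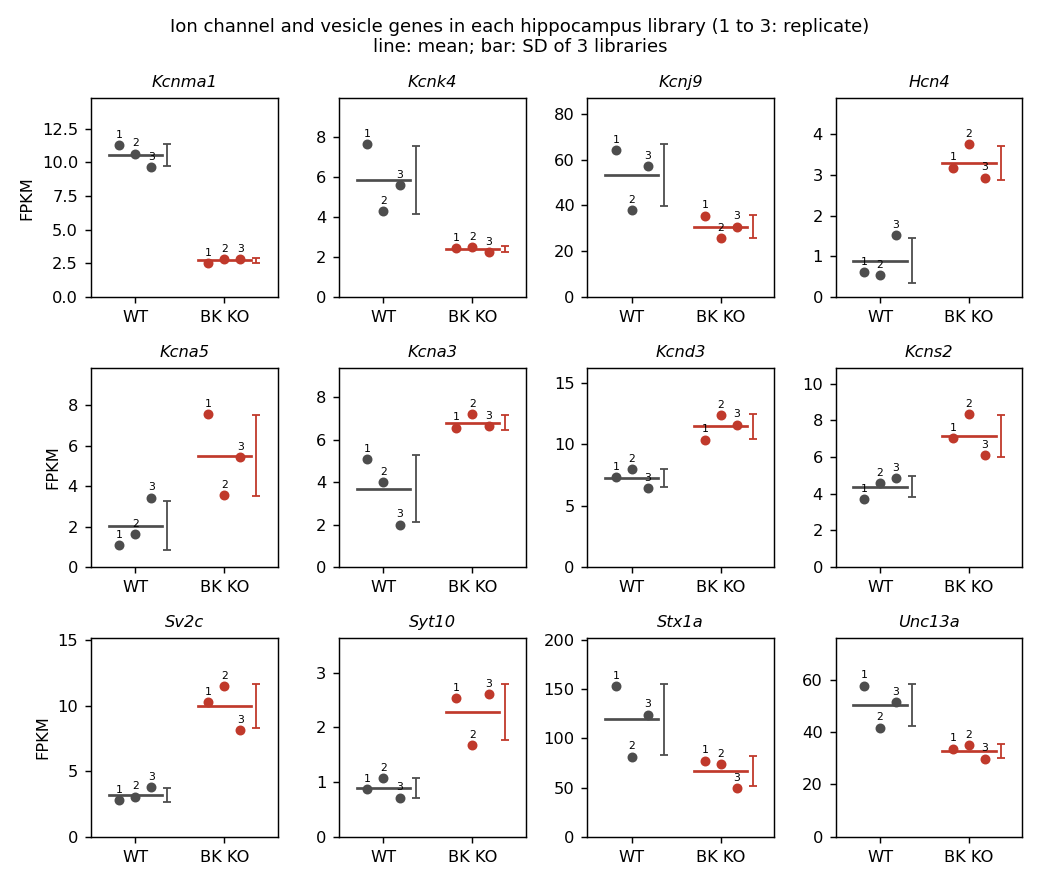
FPKM (y axis) of 8 ion channel genes and 4 vesicle genes in each WT and BK KO hippocampus library, with the replicate number at each point, the group mean as a line and the SD of 3 libraries as a bar. The WT and BK KO values do not overlap in any of the 12 genes, and Kcnma1 lies at 10.5 against 2.73 FPKM.

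Of 5 listed genes of vesicle release, 2 of low abundance rose, 2 of higher abundance fell and 1 did not pass the threshold. That is 80.0% past the threshold, against 42.6% of all listed genes. Sv2c, a vesicle glycoprotein with a restricted distribution in the brain, was at 2.80, 3.08 and 3.83 FPKM in WT versus 10.3, 11.5 and 8.14 FPKM in BK KO. Its log2 fold change was 1.37 (SE 0.16, adjusted p = 0.012, limma), a level 3.08 times higher. Syt10, a calcium sensor of regulated secretion, rose from 0.875, 1.08 and 0.717 FPKM to 2.54, 1.68 and 2.61 FPKM (log2 fold change 0.79, SE 0.15). Both were absent from the cortex table and had separate groups. Stx1a, the syntaxin of the fusion machinery, was at 153, 81.4 and 124 FPKM in WT against 77.3, 73.5 and 49.7 FPKM in BK KO, with a log2 fold change of -0.81 (SE 0.27). Unc13a, which primes vesicles, was at 57.7, 41.7 and 51.4 FPKM in WT, whereas BK KO libraries held 33.6, 35.0 and 29.8 FPKM (log2 fold change -0.59, SE 0.15). Both were past the threshold in 3 of 6 fits made without 1 library each. Syn3, a synapsin that the cortex table also lists, had a log2 fold change of 0.46 (SE 0.12) and did not pass the threshold.

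Few receptors and adhesion molecules of the synapse were listed. Nlgn1, a postsynaptic adhesion molecule of excitatory synapses, rose from 4.97 ± 0.821 to 8.46 ± 2.35 FPKM (SD, n = 3) at a log2 fold change of 0.64 (SE 0.20). Igsf9b, an adhesion molecule of inhibitory synapses, fell by 0.63 (SE 0.22) with overlapping groups. Grm3, a metabotropic glutamate receptor of neurons and astrocytes that is also in the cortex table, fell from 13.3 ± 1.94 to 8.25 ± 1.66 FPKM (SD, n = 3). Grin2b, a subunit of the NMDA receptor, had a log2 fold change of 0.54 (SE 0.20) and did not pass the threshold. Glra3, a glycine receptor subunit, rose by 0.67 (SE 0.25) with WT library 1 inside the BK KO range. Camk2d, a calcium-dependent kinase, rose by 0.74 (SE 0.25), also with groups that overlapped.

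Axon guidance genes were mostly lower. Of 14 listed genes, 8 fell, 2 rose and 4 did not pass the threshold, so 71.4% were past it against 42.6% of all listed genes. The median log2 fold change of the 14 genes was -0.62 against -0.27 for all listed genes. Sema7a, a membrane-anchored semaphorin, was the most abundant of them at 91.3, 63.5 and 88.4 FPKM in WT and 52.4, 50.9 and 43.1 FPKM in BK KO (log2 fold change -0.71, SE 0.17). The ephrin receptors Ephb2 and Ephb3 fell by 0.59 (SE 0.12) and 0.68 (SE 0.16), and Ntn5, a netrin, by 0.68 (SE 0.19). Robo3, a receptor of the Slit pathway, Cxcl12, a chemokine that guides migrating neurons, and Ssh3, a phosphatase of cofilin, fell by 0.72, 0.83 and 0.72 on the log2 scale, and the cortex table lists these 3 genes too. Ptpro, a receptor tyrosine phosphatase of axons, went against the rest of the list. It was at 1.79, 2.56 and 2.13 FPKM in WT versus 11.1, 5.94 and 5.24 FPKM in BK KO, a level 3.44 times higher (log2 fold change 1.36, SE 0.26, adjusted p = 0.0152, limma). Reln, described above, is the other guidance gene that rose.

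Of 5 listed cadherins, Cdh4 (R-cadherin) rose from 2.92, 1.65 and 2.54 FPKM to 5.09, 6.69 and 5.25 FPKM with separate groups (log2 fold change 1.0, SE 0.18). Cdh24 fell by 0.59 (SE 0.13). The protocadherins Pcdhga7 and Pcdhga9 had log2 fold changes of 0.40 (SE 0.12) and 0.38 (SE 0.15) and did not pass the threshold. Their transcripts share exons with the rest of the gamma cluster, so their separate values are uncertain.

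Signalling genes were more often higher than lower in BK KO. Of 64 listed genes, 42 were higher and 22 lower, and 18 rose and 14 fell past the threshold. These are 32 of 64 genes, against 42.6% of all listed genes, and the median log2 fold change was 0.39. Of these genes, 47 were absent from the cortex table.

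Among 8 listed neuropeptides and growth factors, 6 rose, 1 fell and 1 did not pass the threshold. The share past the threshold was 87.5%, against 42.6% of all listed genes. Trh, the precursor of thyrotropin-releasing hormone, was at 0.345, 3.43 and 2.09 FPKM in WT against 11.6, 4.09 and 7.33 FPKM in BK KO. Its groups did not overlap but WT library 2 and BK KO library 2 were close, and the log2 fold change was 1.62 (SE 0.49, adjusted p = 0.0283, limma). Scg2, a granin stored in dense-core vesicles, was at 68.5, 54.4 and 71.1 FPKM in WT, whereas BK KO libraries held 118, 149 and 106 FPKM, with a log2 fold change of 0.93 (SE 0.17). It is listed in the cortex table too. Fgf2, a growth factor for neurons, glia and vessels, was at 0.168, 0.381 and 0.103 FPKM in WT versus 1.28, 1.22 and 0.733 FPKM in BK KO, so that its WT level was low in every library and its log2 fold change of 0.77 (SE 0.15) understates the ratio. Igfbp3, which binds insulin-like growth factors, and Adm, the vasodilator peptide adrenomedullin, rose by 0.83 (SE 0.23) and 0.74 (SE 0.26). Apln, the vasoactive peptide apelin, was the gene that fell, from 14.4, 6.39 and 15.1 FPKM to 5.21, 5.76 and 4.08 FPKM (log2 fold change -1.03, SE 0.31).

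Gh, which encodes growth hormone, was listed at 0 in all 3 WT libraries and was at 0.120, 0.184 and 57.5 FPKM in BK KO. The value in BK KO library 3 carries the whole difference, and the gene did not pass the threshold (adjusted p = 0.201, limma). It is 1 of 12 pituitary markers, and the other 11 were not listed. Of 20 hypothalamic markers, 3 were listed, namely Trh, Gpr101 and Gpr50, and their summed FPKM ran from 0.524 to 4.45 in WT and from 6.20 to 12.8 in BK KO. Gpr101, an orphan receptor, was at 0.138, 0.972 and 0.276 FPKM in WT against 1.02, 1.96 and 3.10 FPKM in BK KO (log2 fold change 1.03, SE 0.30). Trh was highest in BK KO library 1, while Gpr101 and Gh were highest in BK KO library 3. None of 8 red cell, 15 choroid plexus, 13 striatal and 9 thalamic markers was listed. Of 14 meningeal, 11 ependymal and 28 skeletal muscle markers, 2, 1 and 1 were listed. Among these Aldh1a2, an enzyme of retinoic acid synthesis found in meninges, rose with overlapping groups (log2 fold change 0.76, SE 0.27), while Cemip, the other meningeal marker, had a log2 fold change of -0.44. The part of neighbouring tissue in these differences was not tested.

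**Figure D4:**
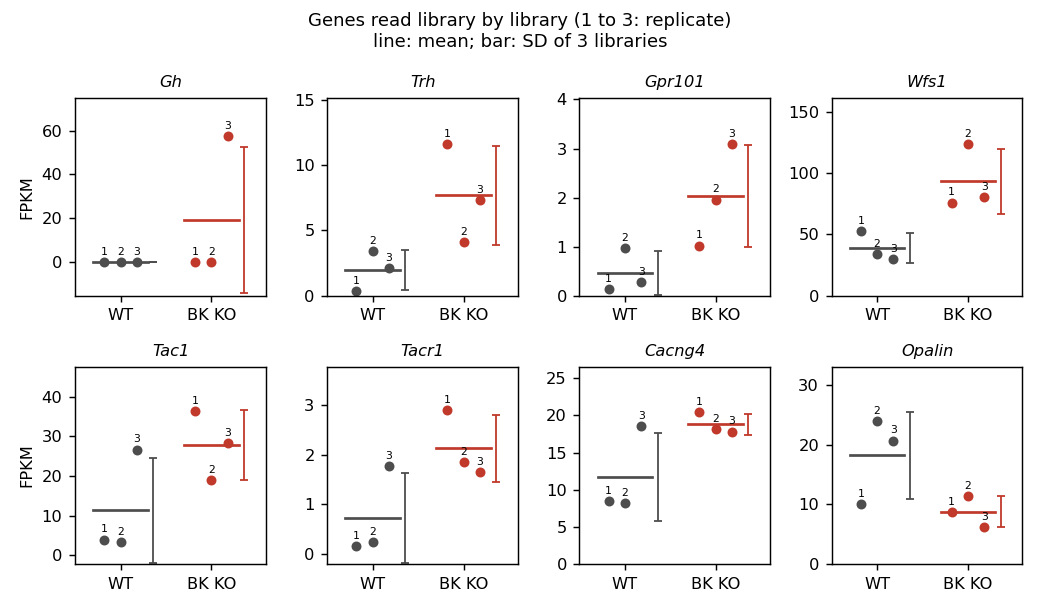
FPKM (y axis) of 8 genes in each WT and BK KO hippocampus library, with the replicate number at each point, the group mean as a line and the SD of 3 libraries as a bar. BK KO library 3 alone holds Gh at 57.5 FPKM, and WT library 3 lies near or inside the BK KO range for Tac1, Tacr1 and Cacng4.

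Of 18 listed G protein-coupled receptors, 15 were higher in BK KO, of which 5 passed the threshold, and all 3 that were lower passed it. The share past the threshold was 44.4%, close to the 42.6% of all listed genes. F2r, the thrombin receptor PAR1, rose from 0.968, 1.35 and 1.35 FPKM to 2.00, 2.50 and 3.45 FPKM with separate groups (log2 fold change 0.70, SE 0.17). Tacr1, the receptor for substance P, was at 0.162, 0.233 and 1.76 FPKM in WT, whereas BK KO libraries held 2.91, 1.85 and 1.65 FPKM. As for Tac1, WT library 3 lay apart from the other WT libraries, here inside the BK KO range, and the log2 fold change was 0.97 (SE 0.35, adjusted p = 0.0431, limma). Gpr83, an orphan peptide receptor, rose by 0.71 (SE 0.23) and Gpr139 by 0.71 (SE 0.28), the latter with overlapping groups. Htr2a, a serotonin receptor, was at 2.98 ± 0.638 FPKM in WT and 4.84 ± 0.950 FPKM in BK KO (SD, n = 3) and did not pass the threshold at a log2 fold change of 0.56. Rxfp1, the relaxin receptor, was at 4.53, 2.80 and 2.06 FPKM in WT versus 0.883, 1.01 and 1.34 FPKM in BK KO and fell by 0.96 (SE 0.22). S1pr1, a sphingosine-1-phosphate receptor abundant in endothelium and astrocytes, fell from 48.8 ± 5.61 to 32.3 ± 4.35 FPKM (SD, n = 3), just past the threshold at -0.58 on the log2 scale (SE 0.14).

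Downstream of these receptors, 14 genes of second messenger and G protein signalling were listed, of which 5 rose and 1 fell, all 6 absent from the cortex table. This is 42.9% past the threshold, close to the 42.6% of all listed genes. Dgkb, a diacylglycerol kinase of neurons, was at 12.6, 14.3 and 18.5 FPKM in WT against 27.2, 28.7 and 24.8 FPKM in BK KO, and its log2 fold change was 0.80 (SE 0.15, adjusted p = 0.0152, limma). Tiam1, an activator of Rac, and Plce1, a phospholipase C, rose by 0.64 (SE 0.15) and 0.61 (SE 0.13). Rgs11, which speeds the shut-off of G proteins, fell from 8.65, 11.6 and 11.6 FPKM to 6.93, 5.09 and 3.74 FPKM (log2 fold change -0.91, SE 0.21). The groups were separate for these 4 genes.

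Only 5 of 52 activity-regulated genes were listed. Nr4a1, an orphan nuclear receptor induced by neuronal activity, was at 28.3, 15.5 and 20.6 FPKM in WT, whereas BK KO libraries held 14.0, 3.70 and 11.6 FPKM (log2 fold change -1.19, SE 0.45, adjusted p = 0.0475, limma). Npas4, a transcription factor induced by calcium entry, was at 2.67, 1.68 and 2.68 FPKM in WT versus 1.49, 0.246 and 1.49 FPKM in BK KO, with a log2 fold change of -0.74 (SE 0.29, adjusted p = 0.0529, limma). In both genes BK KO library 2 was the lowest of its group and WT library 2 the lowest of the WT group. Scg2 rose, as given above. Plk3 and Maff had log2 fold changes of -0.48 (SE 0.14) and 0.46 (SE 0.20) and did not pass the threshold.

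Of 7 listed genes of the Wnt and TGF-beta pathways, 57.1% were past the threshold, against 42.6% of all listed genes. Of these 7, 3 did not pass it, and the 4 that fell were absent from the cortex table. Besides Rspo1, these were the BMP antagonist Chrd, from 10.7 ± 2.32 to 6.12 ± 1.28 FPKM, the ligand Wnt9a, from 5.84 ± 1.55 to 3.16 ± 0.192 FPKM, and Dkkl1, a relative of the Dickkopf antagonists, from 11.1 ± 3.24 to 5.78 ± 2.18 FPKM (SD, n = 3). The 3 genes of the list that were higher, namely Smad9, Wnt10b and Fzd5, had log2 fold changes from 0.32 to 0.44. Of 13 listed genes of growth and survival kinase pathways, 2 rose and 3 fell, which is 38.5% past the threshold against 42.6% of all listed genes. Cdkn1a, the cell cycle inhibitor p21, was at 21.2, 8.32 and 14.2 FPKM in WT against 41.0, 23.9 and 34.5 FPKM in BK KO (log2 fold change 1.19, SE 0.34) and is listed in both tables. Apaf1, the core of the apoptosome, rose by 0.72 (SE 0.21) and is not in the cortex table. Akt2 and Rps6kb2, kinases of the insulin and mTOR pathway, fell by 0.61 (SE 0.14) and 0.64 (SE 0.16), and Hkdc1, a hexokinase, by 0.70 (SE 0.21).

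Vessel genes were mostly lower in BK KO. Of 35 listed genes, 7 were higher and 28 lower, and 5 rose and 10 fell past the threshold, which is 42.9% past the threshold against 42.6% of all listed genes. The median log2 fold change was -0.46. Of the 35 genes, 20 were also in the cortex table.

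Of 21 markers in the list of mural cells, which are pericytes and smooth muscle, 6 were listed. All 6 were absent from the cortex table and lower in BK KO. Heyl, a gene of mural cells outside the list, was higher and is given at the end. Vtn, the adhesive glycoprotein vitronectin made by pericytes, was at 44.3, 39.4 and 43.6 FPKM in WT, whereas BK KO libraries held 32.3, 22.0 and 28.8 FPKM. It was the only gene of the 6 past the threshold (log2 fold change -0.61, SE 0.16, adjusted p = 0.0203, limma). Rgs5, a pericyte regulator of G proteins, was at 15.8, 16.5 and 14.0 FPKM in WT versus 10.6, 12.2 and 7.78 FPKM in BK KO, with a log2 fold change of -0.57 (SE 0.17), and it was past the threshold when the libraries were rescaled to the deposited base means. Kcnj8 and Abcc9, which together form the ATP-sensitive potassium channel of pericytes, had log2 fold changes of -0.50 (SE 0.15) and -0.27 (SE 0.10). Atp13a5 and Anpep had -0.37 (SE 0.11) and -0.34 (SE 0.17). The groups did not overlap in 5 of the 6 genes, near the share of 79.9% among all listed genes. The share past the threshold was 16.7%, against 42.6% of all listed genes. The summed FPKM of these 6 genes ran from 62.6 to 66.7 in WT and from 38.5 to 46.9 in BK KO.

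Of 9 listed endothelial genes, 8 were lower and 3 of these fell past the threshold, while 7 of the 9 are also in the cortex table. With the gene that rose, 44.4% were past the threshold, close to the 42.6% of all listed genes. Emcn, a surface sialomucin, fell from 3.66, 3.79 and 2.58 FPKM to 2.29, 1.71 and 1.59 FPKM, and Tie1, a receptor kinase, from 3.98, 3.94 and 3.09 FPKM to 2.27, 2.11 and 1.95 FPKM. Their log2 fold changes were -0.60 (SE 0.16) and -0.58 (SE 0.12), with separate groups. Tek, the receptor of the angiopoietins, was at 2.53 ± 0.467 FPKM in WT and 1.42 ± 0.336 FPKM in BK KO (SD, n = 3) and did not pass the threshold at -0.54 (SE 0.15). Mfsd2a, the lipid transporter of the blood-brain barrier, was the endothelial gene that rose. It was at 13, 8.74 and 8.58 FPKM in WT against 16.9, 12.3 and 24.8 FPKM in BK KO, with a log2 fold change of 0.74 (SE 0.27), groups that overlapped and no entry in the cortex table.

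Ligands that act on vessels moved in both directions, with 3 of 6 listed genes higher and 2 lower past the threshold. That is 83.3%, against 42.6% of all listed genes. Angpt2, which antagonizes Tek in most settings, rose from 0.499, 0.424 and 0.275 FPKM to 1.99, 1.25 and 0.711 FPKM (log2 fold change 0.69, SE 0.21), and it was absent from the cortex table. Angptl4, an inhibitor of lipoprotein lipase, rose by 0.68 (SE 0.19) and is in both tables. Adm rose and Apln and Cxcl12 fell, as given above.

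Of 14 listed genes of collagen and matrix, 12 were lower and 4 fell past the threshold, and 10 of the 14 are in both tables. In either direction 35.7% were past the threshold, against 42.6% of all listed genes. Col5a1, Col15a1 and Col26a1 fell by 1.07 (SE 0.20), 0.69 (SE 0.11) and 0.75 (SE 0.14), and the protease Adamts10 by 0.68 (SE 0.15), each with separate groups. Sparc, a matrix protein secreted by glia and vessel cells, went the other way, from 60.8, 99.8 and 83.0 FPKM in WT to 119, 169 and 219 FPKM in BK KO (log2 fold change 1.04, SE 0.26). Col10a1 was listed at 0 in the 3 WT libraries and was at 0.173, 0.736 and 0.182 FPKM in BK KO.

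**Figure D5:**
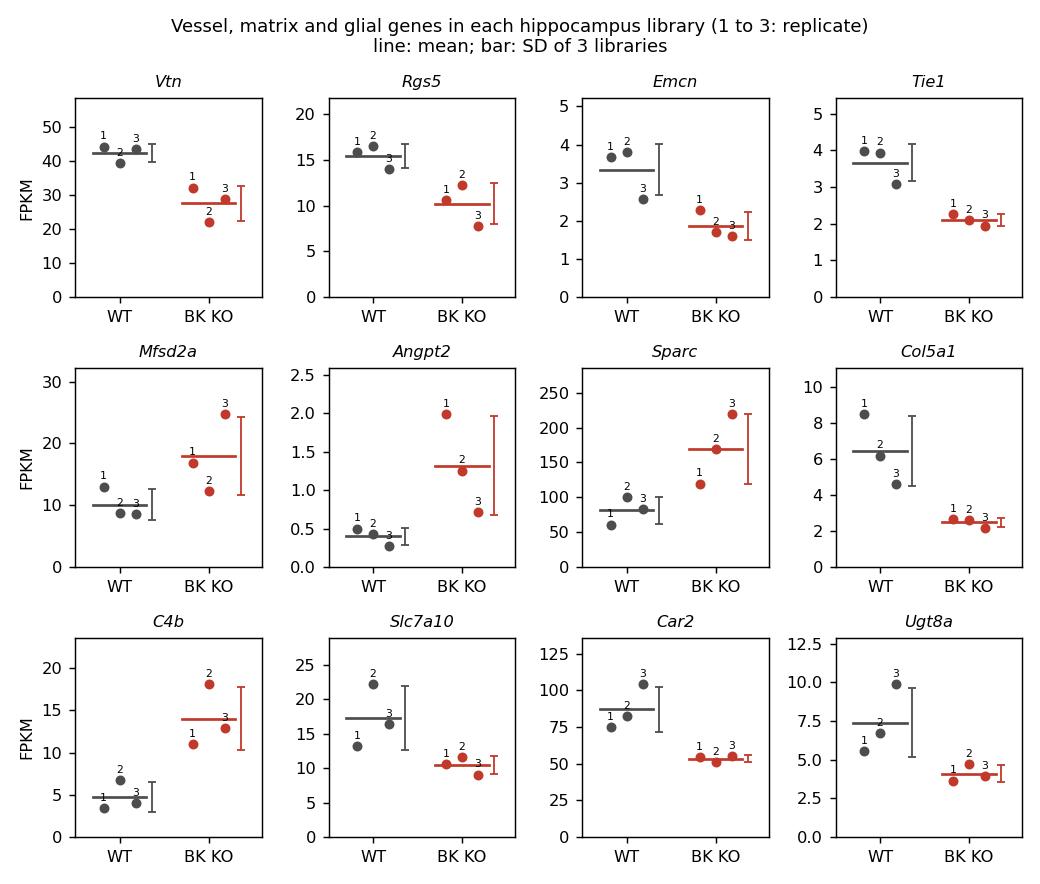
FPKM (y axis) of 8 vessel and matrix genes and 4 glial genes in each WT and BK KO hippocampus library, with the replicate number at each point, the group mean as a line and the SD of 3 libraries as a bar. Vtn, Rgs5, Emcn, Tie1, Col5a1, Slc7a10, Car2 and Ugt8a lie lower in BK KO, Angpt2, Sparc and C4b lie higher without overlap, and Mfsd2a lies higher with overlap.

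Of 25 listed glial genes, 5 rose and 9 fell past the threshold, which is 56.0% against 42.6% of all listed genes, and the median log2 fold change was -0.37. The count of 14 genes was 9 without WT library 3. Of the 25 genes, 12 were absent from the cortex table.

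The 8 listed oligodendrocyte genes, of 49 in the list, were all lower in BK KO and 5 of them fell past the threshold. This is 62.5% against 42.6% of all listed genes, of which 379 of 652 were lower. Car2, the carbonic anhydrase of oligodendrocytes, was at 75.0, 82.4 and 105 FPKM in WT, whereas BK KO libraries held 54.3, 51.0 and 55.0 FPKM (log2 fold change -0.68, SE 0.14, adjusted p = 0.0164, limma). Ugt8a, which makes the myelin lipid galactosylceramide, fell by 0.69 (SE 0.20). Both genes are in the cortex table too and their groups did not overlap. Cryab, a small heat shock protein also raised in reactive astrocytes, was at 61.4, 49.3 and 91.1 FPKM in WT versus 38.1, 36.2 and 40.7 FPKM in BK KO and was absent from the cortex table (log2 fold change -0.75, SE 0.22). Opalin, a myelin membrane protein, fell by 0.93 (SE 0.34) with WT library 1 inside the BK KO range. Olig2, a transcription factor of the whole lineage, was at 15.2 ± 2.63 FPKM in WT and 9.99 ± 2.03 FPKM in BK KO (SD, n = 3) and did not pass the threshold. The summed FPKM of the 8 genes was 184, 205 and 279 in WT and 130, 128 and 136 in BK KO, highest in WT library 3.

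Both listed genes of oligodendrocyte precursors, of 15 in the list, were higher in BK KO and absent from the cortex table. Lhfpl3 was at 4.43, 5.31 and 5.49 FPKM in WT against 9.97, 7.41 and 9.57 FPKM in BK KO (log2 fold change 0.71, SE 0.14). Cacng4, a regulator of AMPA receptors that neurons also express, was at 8.49, 8.19 and 18.6 FPKM in WT, whereas BK KO libraries held 20.4, 18.1 and 17.8 FPKM. WT library 3 lay inside the BK KO range, and the log2 fold change of 0.73 (SE 0.29) had an adjusted p of 0.0542 by limma.

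Of 39 genes in the astrocyte list, 5 were listed, of which 1 rose and 3 fell, Grm3 being given above. This is 80.0% past the threshold against 42.6% of all listed genes. Etnppl, an astrocyte gene outside the list, rose and is given at the end. Slc7a10, a transporter of serine and glycine, fell from 13.2, 22.3 and 16.4 FPKM to 10.6, 11.6 and 9.05 FPKM (log2 fold change -0.66, SE 0.20), and Ppp1r3g, a regulator of glycogen synthesis, fell by 0.68 (SE 0.22). Both were absent from the cortex table. Mt2, a metallothionein, was at 350, 439 and 382 FPKM in WT versus 803, 447 and 687 FPKM in BK KO, and the log2 fold change of 0.69 (SE 0.22) was past the threshold in 3 of 6 fits made without 1 library each. BK KO library 2 lay just above the WT range. C4b, a complement component raised in reactive astrocytes, was at 3.41, 6.75 and 4.05 FPKM in WT against 11, 18.2 and 12.9 FPKM in BK KO. Its level was 2.96 times higher (log2 fold change 1.40, SE 0.26, adjusted p = 0.015, limma), and since the mouse genome holds the near-identical copy C4a, the assignment of reads to C4b is uncertain. Osmr, a cytokine receptor of reactive astrocytes, had a log2 fold change of 0.55 (SE 0.16) and did not pass the threshold. Of 35 genes raised in reactive astrocytes, these and Cryab were the 3 listed.

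Of 56 microglial genes in the list, 5 were listed and they did not share a direction. Gpnmb, a gene of activated microglia outside the list, rose and is given at the end. Fcrls, an Fc receptor-like protein of resident microglia, fell from 10.8, 6.50 and 9.34 FPKM to 1.91, 5.48 and 3.16 FPKM with separate groups (log2 fold change -1.18, SE 0.31) and is in both tables. Spp1, the secreted protein osteopontin, rose by 0.65 (SE 0.26) with groups that met at 4.67 FPKM and an adjusted p of 0.055 by limma. C3ar1, P2rx4 and Hk3 did not pass the threshold, at log2 fold changes of 0.41 (SE 0.11), -0.48 (SE 0.15) and -0.34 (SE 0.12). The 3 listed genes of antigen presentation and interferon response, Gbp3, Oas2 and Ciita, were under 1 FPKM in every library and did not pass the threshold.

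Among genes that are absent from the cortex table, had separate groups and reached a mean of 5 FPKM in the higher group, 59 rose and 66 fell. The 10 with the largest rise were Trh, C4b, Sv2c, Ptpro, Smoc1, Kcna5, Reln, Nxph4, Peg10 and Cdh4, and 8 of these belong to the classes above. Smoc1, a secreted calcium-binding matrix protein, was at 2.67, 3.11 and 1.6 FPKM in WT, whereas BK KO libraries held 5.30, 7.75 and 6.61 FPKM (log2 fold change 1.14, SE 0.20). Peg10, an imprinted gene derived from a retrotransposon, was at 2.67, 4.31 and 2.56 FPKM in WT versus 5.02, 10.6 and 7.17 FPKM in BK KO (log2 fold change 1.02, SE 0.27). All BK KO values exceeded all WT values in both.

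The 10 with the largest fall were Coro6, E130012A19Rik, Rspo1, Nr4a1, Psrc1, Mapk11, Ddit4l, Kcnk4, Snhg11 and Rgs11. Coro6, a coronin that binds actin, was at 17.7, 19.9 and 16.7 FPKM in WT against 9.56, 4.71 and 5.94 FPKM in BK KO, a level 2.69 times lower (log2 fold change -1.35, SE 0.23, adjusted p = 0.0142, limma). Psrc1, a microtubule-associated protein, fell from 6.79, 5.77 and 4.90 FPKM to 2.26, 2.29 and 2.07 FPKM, and the SD of its BK KO values was 0.12 FPKM (n = 3). E130012A19Rik was at 87.3, 37.5 and 72.4 FPKM in WT, whereas BK KO libraries held 36.3, 14.7 and 28.1 FPKM, with WT library 2 close to BK KO library 1. Mapk11, the p38-beta stress kinase, was at 29.3, 12.9 and 23.9 FPKM in WT versus 10, 12.7 and 6.72 FPKM in BK KO and was likewise separated only narrowly (log2 fold change -1.05, SE 0.33). Ddit4l, an inhibitor of mTOR signalling, fell by 0.99 (SE 0.23). Snhg11, a long noncoding RNA abundant in neurons, fell from 268 ± 47.4 to 140 ± 45.3 FPKM (SD, n = 3).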

How the data were processed

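Hippocampal poly-A RNA of 3 WT and 3 BK KO mice was sequenced from 2 μg of total RNA per library (12 libraries with cortex). Per the labels, mm9 was the genome build and DESeq 1.10.1 and DESeq2 were named; the aligner and read counter are not given in the sources used here. The authors listed genes that passed 0.05 in p-value before adjustment and 0.58 in log2 fold change. The deposited base means are a normalized signal, each group's mean as given by the authors, and served only for rescaling. Deposited columns of fold change, log2 fold change, p-value and adjusted p-value hold the authors' comparison and were not used. The deposited value per library was taken as FPKM, a unit the authors did not name, from its digits and its relation to transcript length. Depth is unknown, so no counting interval is given. The labels give the replicate numbers, which name different mice in the 2 genotypes, and 0 per-library columns were left unmatched.

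All 652 genes of the 6 libraries were fitted with limma 3.58.1 (lmFit and eBayes, no trend, no block, two-sided) in R 4.3.3 on log2(FPKM + 1). Since the genes were selected on these libraries, the spread and every p-value are descriptive. On simulated data for BK KO against WT hippocampus (652 genes), 94 of 100 genes changed by 1 and 100 of 100 changed by 2 on the log2 scale were called, and 5 of 452 unchanged ones. The changed genes were drawn only from genes of higher FPKM. Their shares therefore do not cover the 209 genes with a mean under 1 FPKM. Tables and figures were made in Python 3.11.15 with numpy 2.4.6, pandas 2.3.3 and matplotlib 3.10.9. No coordinates are given, because the builds of the files and of the reference differ.

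The genes described and the lists were chosen with earlier results of these data known. Of 40 lists written from background knowledge, 36 had a listed gene, and Lrrc45 and Grin1os were taken out because only their names matched. Named were Kcnma1, members of the lists, and the 10 largest rises and 10 largest falls among genes absent from the cortex table that were past the threshold, had separate groups and averaged 5 FPKM or more in the higher group. A few genes outside the lists were named too, picked with their values in view. The alternatives were a pseudocount of 0.1, a mean of at least 1 FPKM, a trend in limma, a block on the replicate number, rescaling to the base means, adjusted p-values and leaving out each library. Rescaling lowered the BK KO libraries by 0.03 on the log2 scale. Some listed genes are not reported here.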

Additional observations from a re-analysis of the deposited data

How the results depend on the processing

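A pseudocount of 0.1 in place of 1 moved the counts most. It called 548 genes, of which 247 were higher and 301 lower, with 383 absent from the cortex table and 165 in both tables, and 58 signalling and 30 vessel genes. With each library left out in turn, the count over all listed genes ran from 230 to 282, that of synapse genes from 22 to 34 and that of glial genes from 9 to 13. In all 6 of these fits 129 genes were past the threshold, 82 of them absent from the cortex table. With p-values adjusted over the listed genes, 262 genes were past the threshold, and the calls of Bcl11b, Cacng4, Gpr139, Npas4, Nr2f2, Spp1 and Tac1 were lost. The other alternatives left each count within 1.5 times its value, with 268 genes at a mean of at least 1 FPKM, 281 with a trend in limma and 282 with rescaling. A block on the replicate number (replicate block) gave 272 genes, 270 of them shared with the fit without it. Same-numbered libraries of the 2 genotypes come from different mice, and their deviations from the group means correlated across genes at 0.02, 0.08 and -0.07, so the number was not taken as a pairing. No named gene reversed its direction under any alternative run. Unknown depth limits the genes with the lowest FPKM, for which 1 read may move a value.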

Other observations

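Some genes outside the lists also had separate groups in hippocampus, and those given here were picked with their values in view. The deposited table gives the GO term actin binding to 18 listed genes, of which 4 were higher and 14 lower in BK KO, and 1 rose and 5 fell past the threshold. This is 33.3% past the threshold against 42.6% of all listed genes, and the median log2 fold change was -0.31 against -0.27, so the term did not stand out from the list. Among them, Mical2, an enzyme that oxidizes and disassembles actin filaments, was at 53.8, 38.6 and 36.2 FPKM in WT against 21.5, 29.9 and 25.4 FPKM in BK KO. Fmnl1, a formin that elongates actin filaments, was at 45.2, 25.0 and 36.5 FPKM in WT against 20.5, 21.9 and 19.9 FPKM in BK KO. Both fell by 0.71 on the log2 scale and are absent from the cortex table, while S100a4, a calcium-binding protein of motile cells, rose by 0.73 (SE 0.17).

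The term dendrite was given to 20 listed genes, of which 10 rose and 3 fell. This is 65.0% past the threshold against 42.6% of all listed genes, and the median log2 fold change was 0.58 against -0.27. Pura, which binds RNA in dendritic transport granules, rose by 0.71 (SE 0.20) with separate groups and is not in the cortex table. Cd34, a surface sialomucin of endothelium that was not in the endothelial list, was at 25.6, 26.3 and 20.0 FPKM in WT against 15.8, 11.9 and 12 FPKM in BK KO and fell by 0.81 on the log2 scale (SE 0.16), again without an entry in the cortex table. Etnppl, Gpnmb and Heyl, also outside the lists, were higher with separate groups and are in both tables. Etnppl, an enzyme of astrocytes, rose from 4.62, 9.43 and 6.40 FPKM to 20.8, 13.7 and 25.8 FPKM (log2 fold change 1.44, SE 0.29). Gpnmb, of activated microglia, rose from 0.591, 0.505 and 0.374 FPKM to 1.99, 4.82 and 1.72 FPKM (log2 fold change 1.28, SE 0.28). Heyl, of mural cells, had a log2 fold change of 0.55 (SE 0.15) and did not pass the threshold. Terms were read from a long table after their counts were seen, and none was tested for enrichment.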
